A study of Mus musculus with 20 samples.

Results

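Collagen chain genes are described here in mouse liver across 4 groups of animals. A gene was a member when its symbol in the platform annotation was Col, a number, the letter a and a number, as in Col3a1, and 42 of the 19505 genes tested met this rule. Of these, 11 encode fibrillar collagen chains, 8 encode basement membrane collagen chains and 23 encode other collagens. The values are deposited log2 signals from Clariom S Mouse microarrays hybridised with total RNA of liver, 1 array per mouse. The 4 groups were mice labelled OGTL WT at 4 weeks of age, OGTL KO at 4 weeks, OGTL WT at 8 weeks and OGTL KO at 8 weeks, with 5 mice in each, 20 arrays in all. The gene named in the series title is Ogt, whose product modifies proteins of the nucleus and cytoplasm with a single sugar, O-GlcNAc. The cells that carry the deletion, the Cre driver, the strain, the sex and the diet are not given in the labels used here.

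Ogt itself checks the labels. At 4 weeks its log2 signals in replicate order were 9.37, 9.87, 9.83, 9.65 and 9.14 in WT and 7.37, 8.30, 8.13, 8.84 and 8.07 in KO. The groups did not overlap, and the KO mean was lower by 1.43 on the log2 scale, a 2.69-fold lower level (KO minus WT -1.43, SE 0.20, limma adjusted p = 8.82e-05; -1.62 without the 3 arrays with skeletal muscle transcripts described next, limma adjusted p = 0.00017). At 8 weeks the Ogt signals ran from 9.84 to 10.33 in WT (10.08 ± 0.20, SD, n = 5) and from 9.55 to 10.01 in KO (9.81 ± 0.21, SD, n = 5). These groups overlapped and the difference of -0.27 (SE 0.20) was not called (limma adjusted p = 0.529), so the 8-week animals are written as labelled KO throughout and every direction at that age rests on the label. The change in the KO effect on Ogt between the ages was itself called (1.16, SE 0.29, limma adjusted p = 0.0307; 1.35 without those arrays, limma adjusted p = 0.018). Where the array's Ogt probes lie relative to the deleted part is not given in the sources used here.

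Array medians ran from 5.42 to 5.58 and the lowest correlation between arrays of 1 group was 0.974. Of the 20 arrays, 3 carried skeletal muscle transcripts: Acta1, the skeletal muscle actin, was 15.89 in WT replicate 4, 15.04 in KO replicate 4 and 15.43 in KO replicate 5 at 4 weeks, against 4.24 to 6.11 in the other 17 arrays. The main results that rest on the 4-week arrays are also given without these 3. Arrays were numbered group by group in the titles, and a drift along that numbering and a group difference cannot be told apart. A background level was set for each group as the 95th percentile of the group means of 1400 olfactory and vomeronasal receptor genes, which gave 5.02 (4-week WT), 5.04 (4-week KO), 5.20 (8-week WT) and 5.02 (8-week arrays labelled KO). Above it stood 21, 23, 18 and 22 of the 42 collagen genes in those groups, 50, 54.8, 42.9 and 52.4% of them, against 57.7, 58.0, 54.5 and 58.3% of all genes tested. Signals of different genes come from different probes and are not ranked against each other.

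Collagens are mostly secreted proteins built from 3 chains wound into a triple helix. Fibrillar collagens such as types I, III and V assemble into the banded fibrils of connective tissue, and in injured liver their deposition makes up scar. Type IV collagen forms the network of basement membranes, with types XV and XVIII associated with it, and type VI forms beaded microfilaments in the matrix around cells. In liver, hepatic stellate cells and portal fibroblasts are the main sources of fibrillar collagen, whereas type XVIII, the precursor of endostatin, is made in quantity by hepatocytes.

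In all 4 groups 17 of the 42 genes stood above background: Col1a1, Col1a2, Col3a1, Col4a1, Col4a2, Col6a1, Col6a3, Col8a2, Col9a2, Col9a3, Col11a2, Col13a1, Col14a1, Col16a1, Col18a1, Col20a1 and Col28a1. In none of the groups 18 did so, among them the cartilage collagens Col2a1 and Col10a1 and the epithelial hemidesmosome collagen Col17a1, and also Col4a4, Col4a5, Col4a6, Col5a1, Col5a3, Col6a4, Col6a5, Col6a6, Col8a1, Col11a1, Col15a1, Col19a1, Col24a1, Col25a1 and Col26a1. The remaining 7 were above background in some groups only. Col27a1 was above it in the 8-week arrays labelled KO alone, Col23a1 in the 4-week KO arrays alone, and Col5a2 in the KO arrays of both ages. Col4a3, Col6a2 and Col22a1 were above it in every group but 8-week WT, and Col9a1 in every group but the 8-week arrays labelled KO.

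The promoters of Col1a2 and Col3a1 are shown because these genes had the largest KO minus WT differences of the 42 at 8 weeks, both positive. Each is the 250 bases before the annotated start of transcription, taken from RefSeq on GRCm38.p6, with Col1a2 at chr6:4505368-4505617 and Col3a1 at chr1:45311288-45311537, both on the + strand. Capitals mark matches to the CCAAT box (CCAAT), the TATA box (TATAAA) and the GC box (GGGCGG), searched on both strands.
Col1a2: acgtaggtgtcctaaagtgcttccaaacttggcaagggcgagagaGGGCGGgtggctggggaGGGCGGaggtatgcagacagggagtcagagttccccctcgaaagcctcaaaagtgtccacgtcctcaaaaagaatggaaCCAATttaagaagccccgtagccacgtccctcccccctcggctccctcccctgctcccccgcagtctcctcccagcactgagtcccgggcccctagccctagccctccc
Col3a1: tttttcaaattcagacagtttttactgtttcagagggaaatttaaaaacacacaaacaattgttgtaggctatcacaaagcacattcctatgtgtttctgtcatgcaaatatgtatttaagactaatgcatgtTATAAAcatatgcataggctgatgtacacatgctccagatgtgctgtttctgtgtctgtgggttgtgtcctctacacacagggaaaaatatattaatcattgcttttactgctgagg
The Col1a2 window had 62.0% G and C, a CCAAT match starting 109 bases before the start, and GC box matches starting 205 and 188 bases before it. The Col3a1 window had 35.2% G and C and held a TATAAA match starting 117 bases before the start, with neither of the other motifs' letters in the window. Across 32851 RefSeq mouse promoters of this length, 33.8% held CCAAT, 12.4% held TATAAA and 32.7% held GGGCGG on either strand. Of the 34 collagen genes with a promoter in the table, 12 held CCAAT, 5 held TATAAA and 20 held GGGCGG. These matches describe letters and do not mark binding sites.

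At 8 weeks the genes for both chains of type I collagen, for the single chain of type III collagen and for the alpha 3 chain of type VI collagen were higher in the arrays labelled KO than in WT, by 2.75-fold (Col1a1), 7.24-fold (Col1a2), 10.3-fold (Col3a1) and 3.92-fold (Col6a3). Col4a2 and the minor fibrillar chain gene Col27a1 were also higher, and Col9a1 was lower. In comparisons of KO with WT, rose and fell mean higher and lower than in WT of the same age, not a change with age. In all, 6 of the 42 genes rose (14.3%) and 1 fell (2.38%), against 4.94% of all genes tested that rose and 1.65% that fell, by limma with Benjamini-Hochberg adjustment over 19505 genes and an adjusted p below 0.05. With array medians set equal, the calls over all genes were 817 higher and 727 lower in place of 963 and 321, and those over the collagens stayed at 6 and 1. The collagen median was 0.05, against -0.036 over all genes. Of the 42 genes 23 stood above background in either 8-week group, and differences of the others have no readable size. The median therefore does not tell whether those others followed the 6. Without the 3 arrays with skeletal muscle transcripts, which enter the fit only through its shared spread, 7 rose, Col6a2 being the added one, and 0 fell. In 7 genes all arrays labelled KO stood above all WT arrays, and in 0 below, against 4.13% and 1.96% of all genes. Of the 6 genes that rose, 4 were among the 11 fibrillar genes (36.4%), 1 among the 8 basement membrane genes and 1 among the 23 others. The class medians were 0.23 for the fibrillar, 0.17 for the basement membrane and -0.02 for the other collagens.

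Type I collagen is the main protein of fibrils and is usually a trimer of 2 Col1a1 chains and 1 Col1a2 chain. For Col1a1 the 8-week log2 signals in replicate order were 6.25, 6.82, 6.63, 6.67 and 6.87 in WT and 8.41, 8.89, 7.40, 7.20 and 8.65 in the arrays labelled KO. All 5 arrays labelled KO stood above all 5 WT arrays, with replicates 3 and 4 nearest to them. The means were 6.65 ± 0.24 and 8.11 ± 0.76 (SD, n = 5), a difference of 1.46 (SE 0.36, limma adjusted p = 0.0135). The call was lost without replicate 2 of the arrays labelled KO (limma adjusted p = 0.0503), while the difference stayed between 1.27 and 1.69 whichever array was left out.

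For Col1a2 the signals were 5.34, 6.41, 5.03, 6.07 and 6.46 in WT and 8.84, 9.94, 7.34, 7.97 and 9.50 in the arrays labelled KO. WT replicate 3 lay below the background level of 5.20 and the groups did not overlap. The difference was 2.86 (SE 0.50, limma adjusted p = 0.000999), from 5.86 ± 0.65 to 8.72 ± 1.07 (SD, n = 5). Type III collagen, a homotrimer of Col3a1 chains, is laid down with type I in soft tissues and early scar. Its signals were 7.10, 8.78, 7.40, 7.84 and 8.97 in WT and 11.74, 12.78, 10.14, 10.50 and 11.77 in the arrays labelled KO. No value of 1 group came within those of the other, and the difference of 3.37 (SE 0.50, limma adjusted p = 0.000156) was the largest of the 42 genes, from 8.02 ± 0.83 to 11.39 ± 1.07 (SD, n = 5). For each of Col1a1, Col1a2 and Col3a1 the exact two-sided permutation p was 0.00794, the smallest that 5 against 5 arrays can give.

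**Figure D1:**
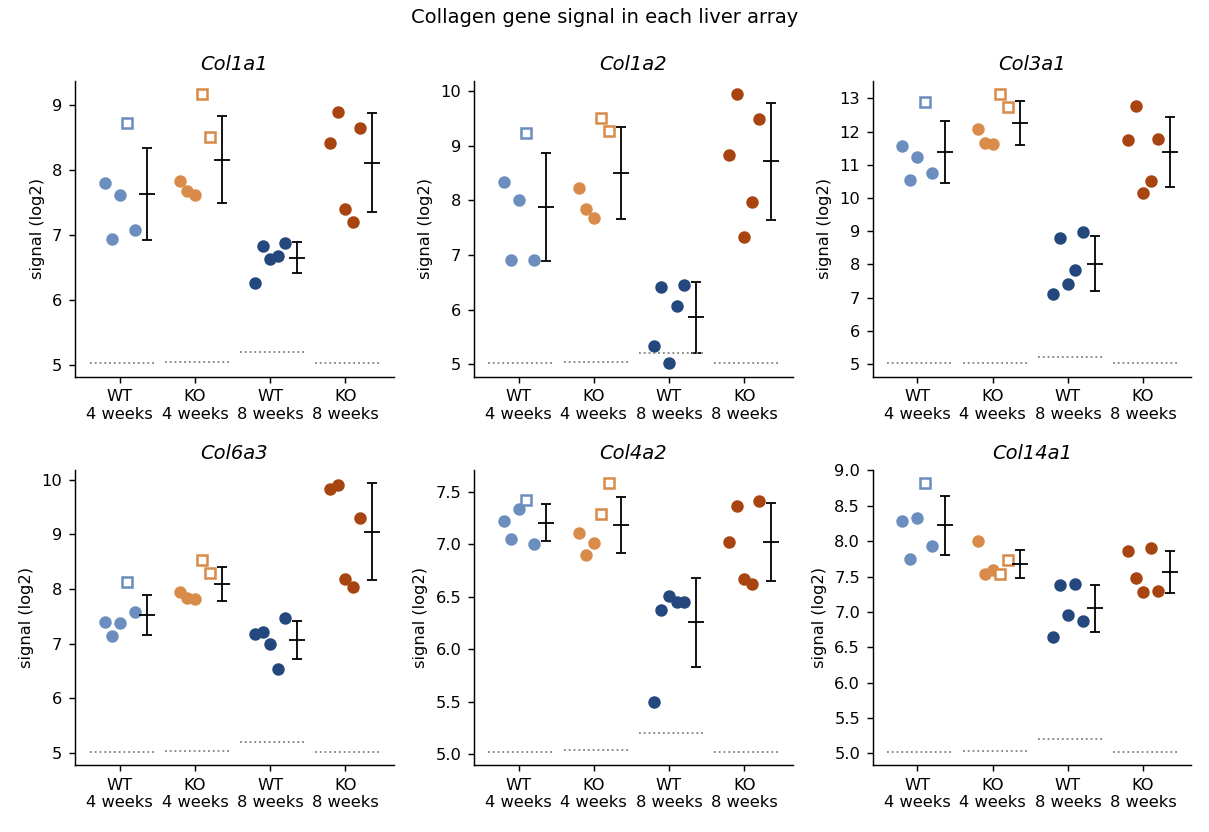
Log2 signal (y axis) of Col1a1, Col1a2, Col3a1, Col6a3, Col4a2 and Col14a1 in each of the 20 arrays by group (x axis), with the group mean and SD in black, the background level as a dotted line and the 3 arrays with skeletal muscle transcripts as open squares. For Col3a1 the 8-week WT arrays sit between 7.10 and 8.97, below every array of the other 3 groups, and for Col6a3 the 8-week arrays labelled KO reach 9.90.

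Type V collagen nucleates type I fibrils. Its Col5a1 chain gene was below background in every group and differed by 0.06 at 8 weeks, between 3.38 ± 0.05 in WT and 3.45 ± 0.23 in the arrays labelled KO (SD, n = 5). Col5a2, whose gene neighbours Col3a1, read 4.65, 4.91, 4.96, 4.64 and 4.31 in WT and 5.20, 5.70, 4.39, 5.39 and 5.57 in the arrays labelled KO. In the latter group 4 of the 5 arrays stood above all WT arrays and replicate 3 stood among them. The difference of 0.56 (SE 0.23) was not called (limma adjusted p = 0.18) and was called without replicate 3 of the arrays labelled KO (0.77, limma adjusted p = 0.0237). Col27a1, a fibrillar chain known mainly from cartilage, read 4.29, 4.77, 4.21, 4.52 and 4.61 in WT and 5.60, 5.43, 4.79, 5.30 and 5.12 in the arrays labelled KO. The groups just failed to overlap, with 4.77 as the highest WT value and 4.79 as the lowest of the arrays labelled KO. The measured difference was 0.77 (SE 0.19, limma adjusted p = 0.0124), and since the WT mean was not above background, the change that can be read against the background level is at least 0.05. Col11a2, which was above background in all groups, read 7.82 ± 0.22 and 7.72 ± 0.08 (SD, n = 5) and was not called.

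Among basement membrane genes, Col4a1 and Col4a2 encode the chains of the most widespread type IV network and lie head to head, with annotated starts 21 bases apart. Col4a2 read 5.50, 6.37, 6.51, 6.45 and 6.45 in 8-week WT and 7.02, 7.36, 6.67, 6.62 and 7.41 in the arrays labelled KO. The groups did not overlap, though WT replicate 1 lay far below the other WT arrays. The difference was 0.76, or 1.69-fold (SE 0.20, limma adjusted p = 0.0209). The call was lost without WT replicate 1 or without replicate 2 or 5 of the arrays labelled KO (adjusted p up to 0.069) and in a fit of the 8-week groups alone (limma adjusted p = 0.0655). Its partner Col4a1 read 5.56 ± 0.15 and 5.82 ± 0.33 (SD, n = 5), a difference of 0.25 (SE 0.14) that was not called (limma adjusted p = 0.359). Values of Col4a1 overlapped between the groups, with replicates 1 and 5 of the arrays labelled KO at 6.27 and 6.07 and the others at 5.50 to 5.64.

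Col4a3, a chain of the network best known from glomerular basement membranes, read 5.30, 4.82, 4.69, 5.30 and 4.51 in 8-week WT and 6.35, 6.47, 4.84, 5.13 and 6.60 in the arrays labelled KO. Its difference of 0.95 was not called (limma adjusted p = 0.149), with 3 arrays labelled KO above all WT arrays and the other 2 among them. Its neighbour Col4a4 was below background, at 4.52 ± 0.20 and 4.84 ± 0.43 (SD, n = 5). Col4a5, Col4a6 and Col15a1 were below background in every group, and their 8-week differences were 0.09, 0.00 and 0.04. Col18a1 was far above background, at 14.29 ± 0.26 in WT and 14.08 ± 0.41 in the arrays labelled KO (SD, n = 5), a difference of -0.21 that was not called (limma adjusted p = 0.573).

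Type VI collagen is assembled from 1 chain each of alpha 1, alpha 2 and alpha 3 in its most common form. Col6a3 read 7.17, 7.22, 6.99, 6.53 and 7.46 in 8-week WT and 9.82, 9.90, 8.18, 8.04 and 9.29 in the arrays labelled KO. The groups did not overlap and the difference was 1.97 (SE 0.31, limma adjusted p = 0.000284). Col6a2 read 5.04, 5.09, 5.17, 5.25 and 5.31 in WT, around the background level, and 6.96, 6.91, 5.35, 5.61 and 6.32 in the arrays labelled KO. These groups did not overlap either, and the measured difference was 1.06 (SE 0.37), at least 1.03 against the background level, but the fit of all 4 groups did not call it (limma adjusted p = 0.0961). It was called without the 3 arrays with skeletal muscle transcripts (limma adjusted p = 0.00859), of which WT replicate 4 at 4 weeks read 7.64 against 5.49 to 5.78 in the other 4 arrays of its group, without that array alone (limma adjusted p = 0.0233), without replicate 3 of the 8-week arrays labelled KO (limma adjusted p = 0.0398), and in a fit of the 8-week groups alone (limma adjusted p = 0.0392). Col6a1, the neighbour of Col6a2, read 5.32 ± 0.49 and 5.73 ± 0.11 (SD, n = 5) and was not called (difference 0.42, limma adjusted p = 0.306). Col6a4, Col6a5 and Col6a6, alternative chains, were below background.

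Of the other collagens, Col9a1 was the single gene that fell. Type IX collagen decorates the fibrils of cartilage. Col9a1 read 5.43, 5.42, 5.11, 5.70 and 5.74 in 8-week WT and 5.13, 5.27, 4.84, 5.04 and 4.82 in the arrays labelled KO. The groups overlapped, the mean of the arrays labelled KO (5.02 ± 0.19, SD, n = 5) was not above background, and the difference was -0.46 (SE 0.14, limma adjusted p = 0.0479, exact two-sided permutation p = 0.0238). The call held in 3 of the 20 fits that left out 1 array, those without WT replicate 2 at 4 weeks, WT replicate 3 at 8 weeks or replicate 2 of the 8-week arrays labelled KO, and reached an adjusted p of 0.126 in the other 17. Its partners Col9a2 (difference -0.02) and Col9a3 (-0.09) were not called. Col14a1, a fibril-associated collagen, was not called at 8 weeks either (0.52, limma adjusted p = 0.134). Apart from these genes and the first 3 type VI chains, the differences of the other collagens at 8 weeks ran from -0.27 for Col6a6 to 0.21 for Col6a5, and none passed the test.

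**Figure D2:**
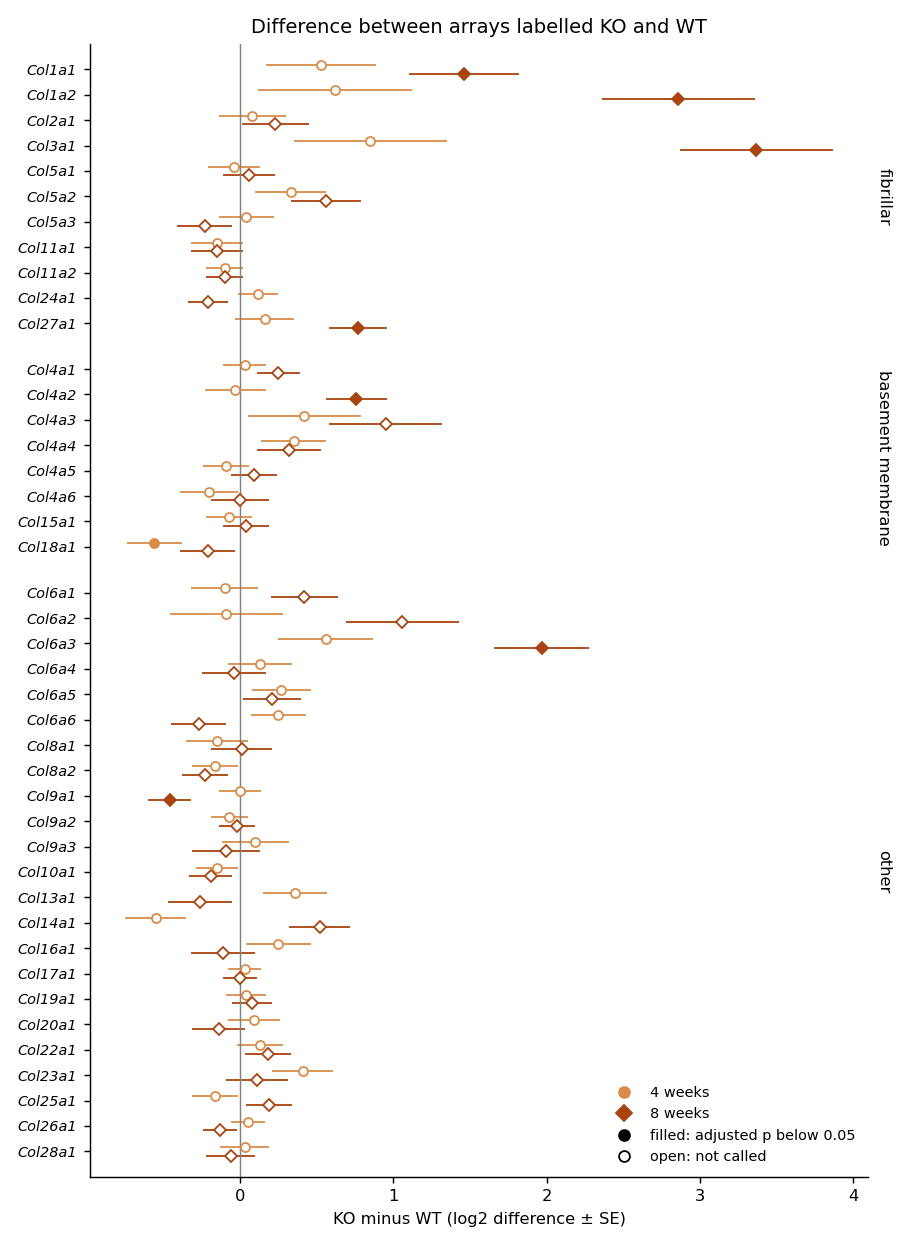
Difference between KO and WT in log2 signal with its SE (x axis) for the 42 collagen genes by class (y axis), at 4 weeks (circles) and 8 weeks (diamonds), filled where the limma adjusted p is below 0.05. At 8 weeks Col3a1 at 3.37, Col1a2 at 2.86, Col6a3 at 1.97 and Col1a1 at 1.46 stand apart from the rest, and at 4 weeks Col18a1 at -0.56 is the single filled symbol.

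Within the 8-week arrays labelled KO, replicates 1, 2 and 5 were higher than replicates 3 and 4 for Col1a1, Col1a2, Col3a1, Col4a2, Col6a2 and Col6a3. Col27a1, which was also called, did not have this order, as replicate 5 read below replicate 4. Markers of other cell types moved with group and with these arrays. Mean signals over 10 portal fibroblast markers were 5.64 to 6.11 in 8-week WT and 7.30, 7.29, 6.50, 6.58 and 7.58 in the arrays labelled KO, with 3 of 10 called higher, Dpt, Cd34 and Gas6, against 4.94% of all genes. None of the other members was called. Mfap4 differed by 1.63, and Thy1, Entpd2, Fbln2, Eln, Pi16 and Clec3b by -0.01 to 0.43, with a list median of 0.37. Over 8 measured markers of cholangiocytes, the cells lining bile ducts, the means were 4.77 to 5.57 in WT and 7.52, 7.80, 6.51, 6.81 and 8.75 in the arrays labelled KO, with 7 of 8 called higher. Of these 7, Cldn4 and Cldn7 read 5.09 and 5.17 in the arrays labelled KO, below the WT background level of 5.20. Both were also below it in WT, so their differences have no readable size. In both lists replicates 1, 2 and 5 were again above replicates 3 and 4. Over 11 stellate cell markers the means were 6.35 to 6.88 in WT and 7.85, 7.93, 7.38, 7.73 and 7.35 in the arrays labelled KO, with 4 of 11 called higher: Pdgfrb, Cygb, Hgf and Colec11. There replicate 5 was the lowest. Without the 3 arrays with skeletal muscle transcripts Mfap4 of the portal fibroblast list was called higher too (limma adjusted p = 0.0028). So was Des of the stellate list (0.88, limma adjusted p = 0.0372), which was below background in both groups. The part of these cell types in the collagen differences was not tested, and in whole liver more cells of a type and more RNA per cell cannot be told apart.

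Array means of 6 mesothelium markers also differed without overlap, at 4.62 to 4.84 in 8-week WT and 4.92 to 5.67 in the arrays labelled KO. At 8 weeks 4.94% of all genes rose and 1.65% fell. Of the 6 mesothelium markers, 1 was called higher, Gpm6a, from 6.47 to 8.91 (difference 2.44, limma adjusted p = 0.001), and 4 of the other 5 stood below background in both groups. The means of the remaining lists overlapped between the 8-week groups. Of 7 myofibroblast and smooth muscle markers none was called, and their means were 4.97 to 5.59 in WT and 5.02 to 5.25 in the arrays labelled KO. Acta2, the smooth muscle actin often used to mark activated stellate cells, read 7.18 ± 0.90 and 6.65 ± 0.39 (SD, n = 5), a difference of -0.53 (limma adjusted p = 0.68). None of 9 sinusoidal endothelium markers was called (8.14 to 9.12 and 8.85 to 9.38), nor any of 5 Kupffer cell markers (7.74 to 8.33 and 7.38 to 8.75). No call was made for the 9 hepatocyte markers either (18.32 to 18.45 and 18.26 to 18.43). All of them but Hnf4a, at 13.81 in WT and 13.5 in the arrays labelled KO, had means above 16, the ceiling of 16-bit images on this scale. Whether signals above that ceiling can show a change was not tested, so the hepatocyte list does not tell whether hepatocyte transcripts differed. The mean over the 12 skeletal muscle markers lay between 4.49 and 4.87 in every 8-week array, and none of the 12 was called.

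At 4 weeks, where the Ogt signal was lower in KO, no collagen gene was called higher and Col18a1 alone was called lower. That is 0% against 4.7% of all genes that rose and 2.38% against 5.48% that fell, and 2 of the 42 genes had an unadjusted p below 0.05. Scaling the arrays to a common median turned the calls over all genes from 917 higher and 1068 lower into 716 and 1349, and then Col14a1 and Col18a1 were both lower. The median difference was 0.04, with 25 positive and 17 negative values, against 0.002 over all genes. Col18a1 read 14.22, 14.28, 14.03, 14.16 and 14.63 in WT and 13.84, 13.58, 13.85, 13.44 and 13.83 in KO. It was the only member whose groups did not overlap, while 4.49% of all genes were lower and 4.06% higher in KO without overlap. The KO mean was 1.47-fold lower (KO minus WT -0.56, SE 0.18, limma adjusted p = 0.0491). The call was at the threshold: it was lost in 16 of the 20 fits that left out 1 array and held without WT replicate 3 at 4 weeks, WT replicate 1 at 8 weeks, or replicate 3 or 5 of the 8-week arrays labelled KO. The adjusted p was 0.152 without the 3 arrays with skeletal muscle transcripts.

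Fibrillar collagens did not separate the genotypes at 4 weeks. Col1a1 read 7.80, 6.93, 7.61, 8.72 and 7.07 in WT and 7.83, 7.68, 7.61, 9.16 and 8.51 in KO. The overlap was wide, and the highest array of WT and the 2 highest of KO were those with skeletal muscle transcripts. The difference was 0.53 (SE 0.36, limma adjusted p = 0.426), and 0.35 without them. Col1a2 read 8.34, 6.91, 8.01, 9.24 and 6.91 in WT and 8.23, 7.85, 7.67, 9.51 and 9.27 in KO, a difference of 0.62 (limma adjusted p = 0.534), and 0.37 without the 3 arrays. Col3a1 read 11.58, 10.53, 11.25, 12.90 and 10.74 in WT and 12.08, 11.65, 11.64, 13.12 and 12.74 in KO, with the same arrays on top. Its difference was 0.85 (SE 0.50, limma adjusted p = 0.343), and 0.77 without them. With SEs of this size the data do not show that the fibrillar genes had similar levels in both genotypes.

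Type IV and type VI genes were also not called at 4 weeks. Col4a1 read 6.04 ± 0.14 and 6.07 ± 0.17, and Col4a2 read 7.20 ± 0.18 and 7.18 ± 0.27 in WT and KO (SD, n = 5), with differences of 0.03 and -0.03 (0.01 and -0.14 without the 3 arrays). Col6a1, Col6a2 and Col6a3 differed by -0.10, -0.09 and 0.56, and by -0.11, -0.06 and 0.49 without the 3 arrays. Col6a3 read 7.40, 7.14, 7.37, 8.12 and 7.58 in WT and 7.95, 7.84, 7.81, 8.53 and 8.30 in KO, so that only the WT array with skeletal muscle transcripts reached into the KO range. Col14a1 read 8.29, 7.75, 8.33, 8.82 and 7.93 in WT and 8.00, 7.53, 7.59, 7.54 and 7.73 in KO, a difference of -0.55 that was not called (limma adjusted p = 0.0839). Portal fibroblast means were 5.93 to 7.19 in WT and 6.38 to 7.37 in KO at this age, and stellate means 7.10 to 7.89 and 7.02 to 7.86, each highest in an array with skeletal muscle transcripts. Des, a member of the stellate list, read 12.15 in WT replicate 4 and 10.54 and 10.36 in KO replicates 4 and 5. In the other 4-week arrays it read 4.0 to 5.45, so Des raised the stellate means of the 3 arrays. At this age 4.7% of all genes rose and 5.48% fell. Of the portal fibroblast and stellate markers Thy1 was called higher and Colec11 lower, neither of them without the 3 arrays (limma adjusted p = 0.102 and 0.0712). Of the 8 cholangiocyte markers Tspan8 alone was called higher (2.51, limma adjusted p = 0.0177; 2.92 without the 3 arrays, limma adjusted p = 0.00754), with list means of 4.88 to 6.07 in WT and 5.40 to 6.26 in KO. Sinusoidal endothelium means were 9.35 to 10.02 in WT and 9.15 to 9.52 in KO, with a list median of -0.49 and 2 of 9 markers called lower. These were Stab2 (-1.07, limma adjusted p = 0.00143), also called without the 3 arrays (limma adjusted p = 0.00461), and Ptprb (-0.73, limma adjusted p = 0.0418), not called without them (limma adjusted p = 0.146). Of 5 Kupffer cell markers 1 was called higher, Cd5l (1.14, limma adjusted p = 0.00472; 1.12 without the 3 arrays, limma adjusted p = 0.0351), with list means of 8.87 to 9.55 in WT and 9.24 to 10.02 in KO. The part of these cell types in the 4-week values was not tested.

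Whether the KO effect differed between 8 and 4 weeks was tested as the difference of the differences. The test called 1 of 42 collagen genes higher, Col14a1, and 0 lower, 2.38% and 0% against 2.05% and 1% of all genes, so the share of members called was near that of all genes. The largest values belonged to Col3a1 (2.52, limma adjusted p = 0.0531), Col1a2 (2.23, limma adjusted p = 0.0989) and Col6a3 (1.41, limma adjusted p = 0.0834), and none of these 3 passed. Col3a1 passed without the 3 arrays with skeletal muscle transcripts (2.60, limma adjusted p = 0.044), while Col1a2 came to 2.48 (limma adjusted p = 0.0519). Col3a1 also passed without any 1 of WT replicate 2 or KO replicate 4 at 4 weeks, WT replicate 5 at 8 weeks, or replicate 3 or 4 of the 8-week arrays labelled KO (adjusted p down to 0.0229). Col1a2 passed without replicate 3 of the 8-week arrays labelled KO (limma adjusted p = 0.0371), and Col6a3 without replicate 3 or replicate 4 of them. Col6a3 came to 1.48 without the 3 arrays (limma adjusted p = 0.1). For Col1a1 the value was 0.93 (limma adjusted p = 0.393), and 1.11 without the 3 arrays (limma adjusted p = 0.183).

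For Col14a1 the estimated KO effects had opposite signs at 4 and 8 weeks, but neither passed by itself in the main fit. KO minus WT was -0.55 at 4 weeks and 0.52 at 8 weeks, neither called, and their difference was 1.06 (SE 0.29, limma adjusted p = 0.0387). At 8 weeks its signals were 6.65, 7.38, 6.95, 7.40 and 6.87 in WT and 7.86, 7.48, 7.28, 7.91 and 7.30 in the arrays labelled KO. The call was lost in 13 of the 20 fits that left out 1 array (adjusted p up to 0.0781) and held without WT replicate 2 or 5 or KO replicate 1 at 4 weeks, WT replicate 2 or 4 at 8 weeks, or replicate 3 or 5 of the 8-week arrays labelled KO. Without the 3 arrays with skeletal muscle transcripts it was 0.88 (limma adjusted p = 0.11).

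With age, genes of type I, III, IV and XIV collagen were lower in WT liver. Between 4 and 8 weeks, 6 of 42 genes fell (14.3%) and 0 rose, against 5.23% of all genes that fell and 3.71% that rose. They were Col3a1, Col1a2, Col14a1, Col4a2, Col5a1 and Col4a1. The median was 0.02 against 0.04 over all genes. Of the 42 genes 21 stood above background at either age in WT, and differences of the others have no readable size. The median therefore does not tell whether those others fell. Leaving out the 3 arrays with skeletal muscle transcripts left 5, Col4a1 being lost. In 8 genes all WT values at 8 weeks lay below all those at 4 weeks, and in 0 above, against 5.38% and 3.7% of all genes. This comparison shares the 8-week WT arrays with the 8-week comparison of genotypes and the 4-week WT arrays with the 4-week one, so it is not separate evidence.

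Col3a1 fell from 11.40 ± 0.94 to 8.02 ± 0.83 (SD, n = 5), a difference of -3.38 or 10.4-fold (SE 0.50, limma adjusted p = 8.3e-05), and the ages did not overlap in WT. Col1a2 fell from 7.88 ± 0.99 to 5.86 ± 0.65 (SD, n = 5), a 4.06-fold lower level (-2.02, limma adjusted p = 0.0124). Col1a1 was lower in all 5 older mice, at 6.25 to 6.87 against 6.93 to 8.72, but its difference of -0.98 was not called (limma adjusted p = 0.0961). Col14a1 was 2.26-fold lower at 8 weeks (-1.17, SE 0.20, limma adjusted p = 0.000351) and Col4a2 1.93-fold lower (-0.95, SE 0.20, limma adjusted p = 0.00299). Col4a1 fell by 0.48 on the log2 scale (limma adjusted p = 0.0418), a call that was lost without any 1 of WT replicates 1, 3, 4 and 5 at 4 weeks or 1, 2, 4 and 5 at 8 weeks (adjusted p up to 0.103) and without the 3 arrays with skeletal muscle transcripts (limma adjusted p = 0.0864). Col5a1 read 4.13 ± 0.39 and 3.38 ± 0.05 (SD, n = 5), below background at both ages, so its called difference of -0.74 (limma adjusted p = 0.00633) has no readable size.

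Without the 3 arrays with skeletal muscle transcripts, the fall of Col3a1 was -3.01 (limma adjusted p = 0.000219), that of Col1a2 -1.68 (limma adjusted p = 0.0266), that of Col14a1 -1.02 (limma adjusted p = 0.00212) and that of Col4a2 -0.89 (limma adjusted p = 0.00982). Each was smaller and still called. Col1a1 stood at -0.70 (limma adjusted p = 0.172). WT replicate 3 at 4 weeks had a mean of 5.88 over the 12 skeletal muscle markers, against 4.67 to 4.97 in the WT replicates 1, 2 and 5, and when it was left out as well, the fall of Col1a2 was not called (-1.52, limma adjusted p = 0.0965). Marker lists moved with age in WT too. Stellate means were 7.10 to 7.89 at 4 weeks and 6.35 to 6.88 at 8 weeks, with 2 of 11 markers lower, and sinusoidal endothelium means were 9.35 to 10.02 and 8.14 to 9.12, with 4 of 9 lower, against 5.23% of all genes that fell. The 4-week stellate means ran from 7.10 to 7.37 without WT replicate 4, where the list member Des read 12.15. Kupffer cell means were 8.87 to 9.55 and 7.74 to 8.33, again without overlap, with 2 of 5 markers lower: Clec4f (-1.40, limma adjusted p = 0.000488) and Vsig4 (-0.94, limma adjusted p = 0.0371), of which Vsig4 was not called without the 3 arrays (limma adjusted p = 0.0626). The mesothelium marker Gpm6a fell as well (-1.46, limma adjusted p = 0.0363), as did the smooth muscle marker Tagln (-0.91, limma adjusted p = 0.0358), the latter not without the 3 arrays (limma adjusted p = 0.0605). The part of these markers in the fall of the collagens was not tested.

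In the KO-labelled mice no type I or type III gene was called between the ages. In this comparison 3 of 42 genes rose (7.14%), Col6a3, Col25a1 and Col27a1, and 1 fell (2.38%), Col5a1, against 7.85% of all genes that rose and 6.78% that fell. When the 3 arrays with skeletal muscle transcripts were left out, Col6a3 and Col27a1 rose and none fell. The ages overlapped in every one of the 42 genes, while 4.79% of all genes were higher and 4.69% lower without overlap. Col1a1 read 8.16 ± 0.66 at 4 weeks and 8.11 ± 0.76 at 8 weeks (SD, n = 5), a difference of -0.05. Col1a2 read 8.51 ± 0.84 and 8.72 ± 1.07 (SD, n = 5), a difference of 0.21 (limma adjusted p = 0.846). Col3a1 read 12.25 ± 0.66 and 11.39 ± 1.07 (SD, n = 5), a difference of -0.86 (SE 0.50) that was not called (limma adjusted p = 0.289). Col14a1 and Col4a2 differed by -0.11 and -0.16, and neither was called. The differences of Col1a1, Col1a2 and Col3a1 were 0.40, 0.80 and -0.40 without the 3 arrays, with limma adjusted p of 0.468, 0.324 and 0.668.

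Col6a3 rose with age in these arrays by 0.96 (SE 0.31, limma adjusted p = 0.0386), from 8.09 ± 0.32 to 9.05 ± 0.89 (SD, n = 5), with overlap between the ages, and by 1.18 without the 3 arrays with skeletal muscle transcripts (limma adjusted p = 0.0284). That call was lost without any 1 of KO replicates 1, 2 and 3 at 4 weeks or 1, 2 and 5 at 8 weeks (adjusted p up to 0.121). Col27a1 rose by 0.92 (SE 0.19, limma adjusted p = 0.00159), at least 0.20 against the background level. Col25a1 was called (0.47, limma adjusted p = 0.0376) and Col5a1 fell (-0.64, limma adjusted p = 0.0136), both below background in every group and both not called without the 3 arrays with skeletal muscle transcripts (limma adjusted p = 0.223 and 0.0683). The Col25a1 call was also lost without any 1 of KO replicates 2, 3, 4 and 5 at 4 weeks or 1, 2 and 4 at 8 weeks.

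**Figure D3:**
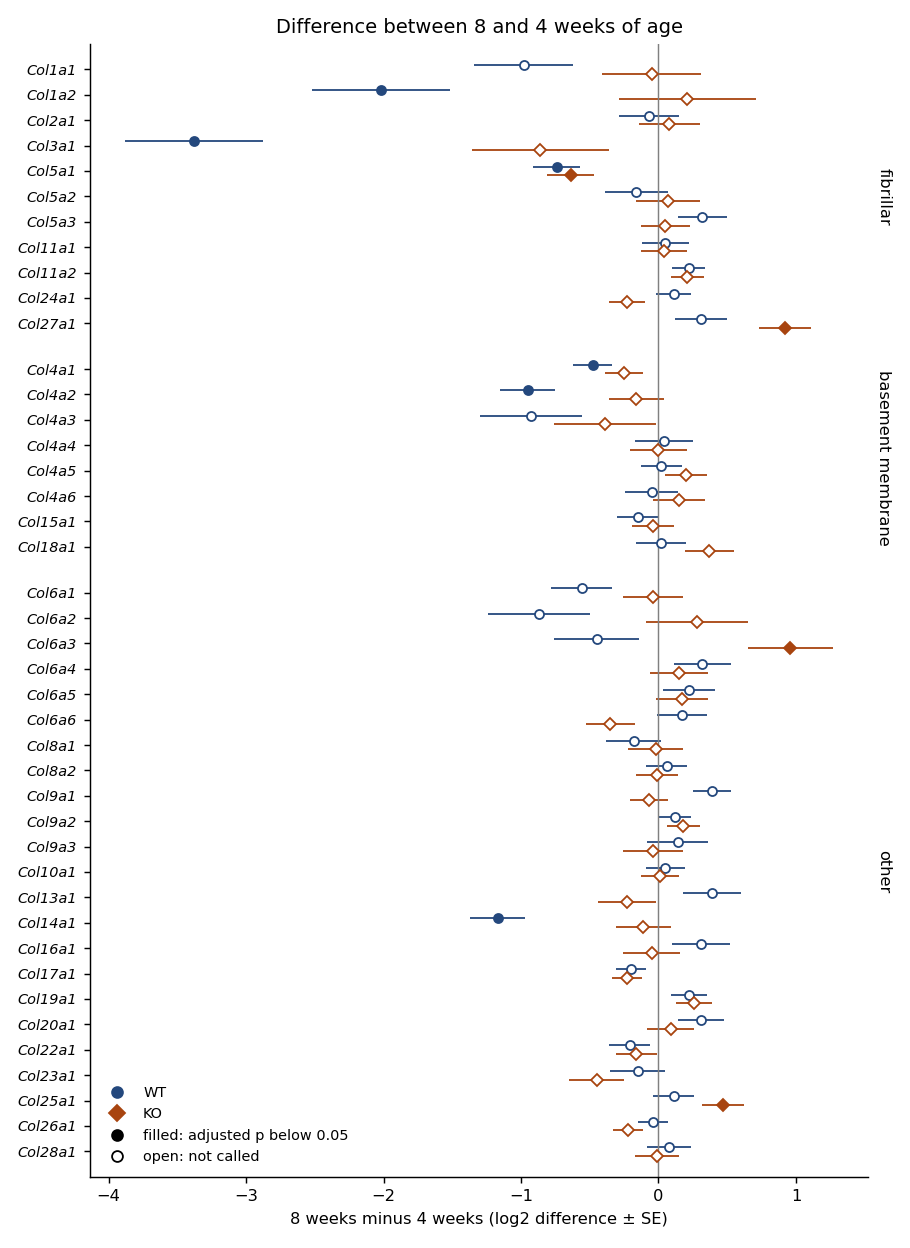
Difference between 8 and 4 weeks in log2 signal with its SE (x axis) for the 42 collagen genes by class (y axis), in WT (circles) and in the arrays labelled KO (diamonds), filled where the limma adjusted p is below 0.05. Col3a1 stands at -3.38 in WT and at -0.86 in the arrays labelled KO, and Col6a3 at -0.45 and 0.96.

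Chains of 1 trimer did not always pass together. At 8 weeks both type I genes were called, Col4a2 was called without Col4a1, and Col6a3 without Col6a1 and Col6a2. Col3a1 rose without its neighbour Col5a2, and Col9a1 fell without Col9a2 and Col9a3. In the age comparison in WT, Col1a2 was called without Col1a1, and Col4a1 and Col4a2 were called together. Whether the chains of a pair differed from each other in their change was not tested. Col8a1 was below background and Col8a2 above it in all groups, and neither was called in any of these comparisons.

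Collagen chains are hydroxylated and folded in the endoplasmic reticulum before secretion. Of 19 measured genes for these steps, none was called at 4 weeks, when 4.7% of all genes rose and 5.48% fell, and without the 3 arrays with skeletal muscle transcripts 1 was called higher there, P4ha3 (0.56, limma adjusted p = 0.0263). At 8 weeks 5 were higher and 0 lower in the arrays labelled KO than in WT, against 4.94% and 1.65% of all genes. The list median was 0.00 against -0.036 over all genes. Serpinh1, the collagen chaperone HSP47, read 6.55 ± 0.21 in WT and 8.43 ± 0.70 in the arrays labelled KO (SD, n = 5). The difference was 1.88 (SE 0.27, limma adjusted p = 0.000112). Crtap, a subunit of the prolyl 3-hydroxylation complex, rose by 1.66 (limma adjusted p = 0.00024), the lysyl hydroxylase gene Plod2 by 1.46 (limma adjusted p = 0.00216), and Creb3l1, a transcription factor of secretory cells, by 1.09 (limma adjusted p = 0.00554), at least 0.27 against the background level since the WT mean lay below it. The prolyl 4-hydroxylase genes P4ha1 (0.00) and P4hb (-0.14) were not called. The KO effect differed between the ages for Crtap (2.20, limma adjusted p = 0.00193) and Serpinh1 (1.56, limma adjusted p = 0.0271), both also called without the 3 arrays (2.11 and 1.44, limma adjusted p = 0.00395 and 0.0485), the Serpinh1 call being lost without any 1 of KO replicate 3 at 4 weeks, WT replicate 3 at 8 weeks or replicates 1 and 2 of the 8-week arrays labelled KO. In WT, 4 of the 19 fell with age, led by Serpinh1 (-1.74) and Crtap (-1.53), and 2 of them were called without the 3 arrays with skeletal muscle transcripts. None rose, against 5.23% of all genes that fell and 3.71% that rose. None of the 19 was called with age in the arrays labelled KO, where 7.85% of all genes rose and 6.78% fell.

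Secreted procollagen is trimmed and cross-linked outside the cell. Of 11 measured genes for these steps 3 were higher at 8 weeks in the arrays labelled KO than in WT. They were the lysyl oxidase family genes Loxl1 (1.85, limma adjusted p = 0.000644) and Loxl3 (0.78, limma adjusted p = 0.00377), and Pcolce (0.91, limma adjusted p = 0.0418). Pcolce enhances removal of the C-propeptide and was below background in WT, leaving a difference of at least 0.62. None fell, against 4.94% of all genes that rose and 1.65% that fell, and the list median was 0.04 against -0.036 over all genes. Pcolce was lost in 9 of the 20 fits that left out 1 array, with an adjusted p up to 0.119. It was called without the 3 arrays with skeletal muscle transcripts (limma adjusted p = 0.0163). Lox itself read 4.68 ± 0.21 and 5.57 ± 0.58 (SD, n = 5) and was not called (limma adjusted p = 0.0804). Without the 3 arrays 4 of the 11 rose, Lox being the added gene (0.90, limma adjusted p = 0.0161), at least 0.38 against the background level. At 4 weeks 1 of 11 fell and none rose, against 5.48% and 4.7% of all genes: Bmp1, the protease that removes the C-propeptide, was 10.26 ± 0.34 in WT and 9.20 ± 0.21 in KO (SD, n = 5; difference -1.06, limma adjusted p = 0.00558). Without the 3 arrays with skeletal muscle transcripts 2 were lower, Bmp1 (-1.21, limma adjusted p = 0.0155) and Pcolce2 (-0.85, limma adjusted p = 0.0388), and 1 was higher, Adamts14 (0.65, limma adjusted p = 0.0262), the last 2 each below background in 1 of the groups. Bmp1 was not called at 8 weeks (-0.36, limma adjusted p = 0.437).

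Of 9 measured collagen receptors 6 were higher at 8 weeks in the arrays labelled KO than in WT and none lower, against 4.94% and 1.65% of all genes. The list median was 0.83 against -0.036 over all genes. Adgrg1, an adhesion receptor that binds type III collagen, rose by 2.31 (limma adjusted p = 0.00106), and Mrc2, the endocytic receptor Endo180 that takes up collagen, by 1.56 (limma adjusted p = 0.000311), at least 0.52 against the background level since the WT mean lay below it. Ddr1, a receptor tyrosine kinase for collagen, was called (1.05, limma adjusted p = 0.000644) but was below background in both groups. Itgb1, the shared beta chain of collagen-binding integrins, read 13.52 ± 0.09 in WT and 14.15 ± 0.29 in the arrays labelled KO (SD, n = 5). The difference was 0.63 (limma adjusted p = 0.00617). At 4 weeks Lair1, an inhibitory collagen receptor of immune cells, was the single gene called (0.79, limma adjusted p = 0.0119), and it was not called without the 3 arrays with skeletal muscle transcripts (limma adjusted p = 0.0519). At that age 4.7% of all genes rose and 5.48% fell.

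Of 11 genes for collagen breakdown and its inhibitors, 2 rose at 4 weeks and 7 at 8 weeks, and none fell at either age, against 4.7% and 4.94% of all genes that rose and 5.48% and 1.65% that fell. Mmp13, the main interstitial collagenase of mice, read 3.84 ± 0.35 in WT and 7.80 ± 0.36 in KO at 4 weeks (SD, n = 5; measured difference 3.96, limma adjusted p = 1.96e-07; 3.95 without the 3 arrays with skeletal muscle transcripts, limma adjusted p = 3.23e-06). WT was below background there, so the change against the background level is at least 2.78. At 8 weeks it read 4.03 ± 0.42 in WT, below the WT background level of 5.20, and 5.15 ± 0.80 in the arrays labelled KO (SD, n = 5), below that level too, so the called difference (limma adjusted p = 0.0227) has no readable size. The KO effect on Mmp13 was called smaller at 8 weeks than at 4 weeks (limma adjusted p = 0.000974; 0.00389 without the 3 arrays), again with no readable size. The other gene called at 4 weeks was the inhibitor Timp1 (0.57, limma adjusted p = 0.0382), below background in both groups and not called without the 3 arrays with skeletal muscle transcripts (limma adjusted p = 0.188). At 8 weeks the largest differences were those of Mmp2, a gelatinase made by stromal cells, from 6.27 ± 0.43 to 10.08 ± 1.32 (SD, n = 5; difference 3.81, limma adjusted p = 1.15e-05), and of Timp2, an inhibitor that also takes part in Mmp2 activation, from 8.42 ± 0.48 to 10.98 ± 1.05 (SD, n = 5; difference 2.56, limma adjusted p = 0.000111). Mmp14, the membrane protease that activates Mmp2, rose by 1.19 (limma adjusted p = 0.00225). The list median was 0.24 at 4 weeks and 1.12 at 8 weeks, against 0.002 and -0.036 over all genes.

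Of 21 measured genes for the signals that induce collagen, 1 rose at 4 weeks (4.7% of all genes did) and 12 at 8 weeks (4.94%), and none fell (5.48% and 1.65%), with list medians of 0.22 and 0.90 against 0.002 and -0.036 over all genes. Without the 3 arrays with skeletal muscle transcripts the 4-week count turned to 0 higher and 1 lower, Smad2 (-0.77, limma adjusted p = 0.0281), which carries the transforming growth factor beta signal. The 8-week count was then 13 higher, Pdgfa being the added gene (0.67, limma adjusted p = 0.00977). Pdgfrb is the platelet-derived growth factor receptor of stromal cells and also a member of the stellate marker list. At 8 weeks Pdgfrb read 6.55 ± 0.36 in WT and 9.28 ± 0.62 in the arrays labelled KO (SD, n = 5). The difference was 2.74 (SE 0.22, limma adjusted p = 1.7e-07). At 4 weeks it read 7.50 ± 0.07 and 7.41 ± 0.15 (SD, n = 5), and the KO effect differed between the ages by 2.82 (limma adjusted p = 5.41e-05; 2.77 without the 3 arrays, limma adjusted p = 0.000492). The ligand genes Pdgfd (2.91, limma adjusted p = 0.000246) and Pdgfc (2.40, limma adjusted p = 0.00156) rose at 8 weeks, as did Ccn2, encoding connective tissue growth factor (1.85, limma adjusted p = 0.00259). The 3 transforming growth factor beta ligand genes rose by 0.91 (Tgfb1), 1.28 (Tgfb2) and 1.30 (Tgfb3, below background in WT and so at least 1.03), with limma adjusted p of 0.00596, 0.0104 and 0.00937. Smad3, a transducer of that signal, was the gene called at 4 weeks (0.64, limma adjusted p = 0.0246), and it was not called without the 3 arrays with skeletal muscle transcripts (limma adjusted p = 0.0574).

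**Figure D4:**
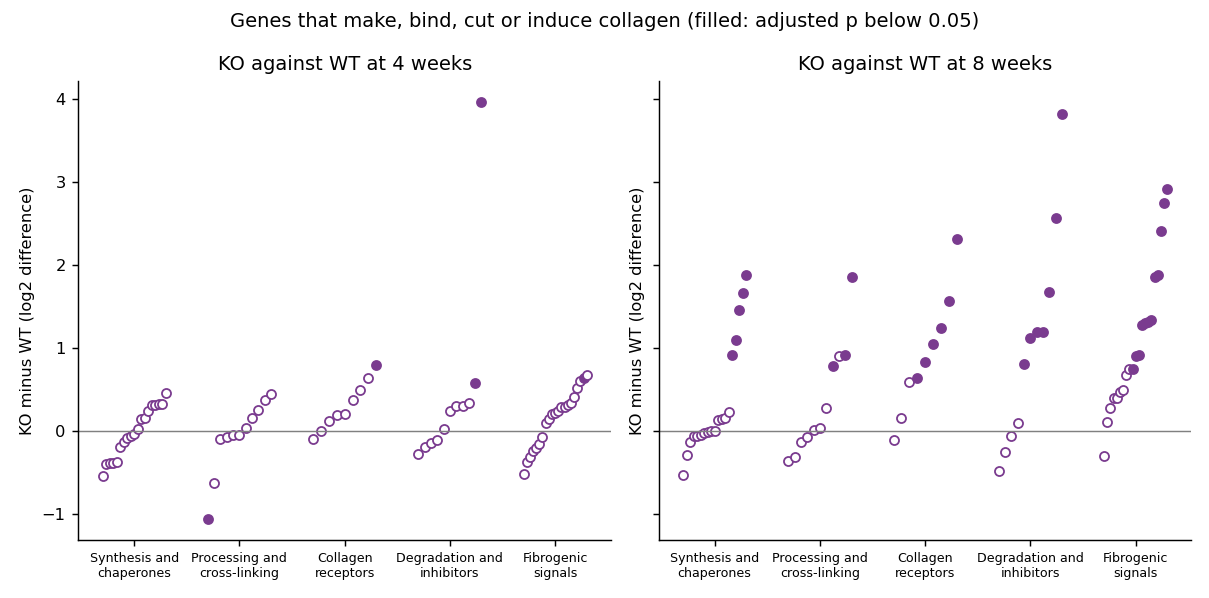
Difference between KO and WT in log2 signal (y axis) for each measured gene of the 5 lists of genes that make, process, bind, break down or induce collagen (x axis), at 4 weeks (left) and 8 weeks (right), filled where the limma adjusted p is below 0.05. At 4 weeks Mmp13 at a measured 3.96, with WT below background, stands alone, and at 8 weeks filled symbols reach 3.81 for Mmp2 and 2.91 for Pdgfd.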

How the data were processed

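Liver RNA of 20 mice in 4 groups of 5 was measured on Clariom S Mouse arrays. The deposited log2 values were made by the authors with RMA in Affymetrix Expression Console, per the submitters' processing notes; versions and the genome build are not given in the sources used here. RMA pulls arrays to 1 distribution, so levels are relative to each array's other genes. The table held 22206 features, of which 2634 without a single symbol were left out; for symbols with several features the 1 with the highest mean was kept, leaving 19505 genes.

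A model of 4 group means (limma 3.58.1, lmFit and eBayes, R 4.3.3) was fitted to all genes and gave 5 comparisons, with 16 residual degrees of freedom and Benjamini-Hochberg adjustment over all 19505 genes; calls are at an adjusted p below 0.05. The script was tested on simulated data. Single genes also got an exact permutation test over arrays. Values given as "at least" compare a group with the background level, which is the 95th percentile of receptor genes. Precision is limited by the number of arrays. The limma p-values of this model rest on the spread between mice within groups, pooled over all 4 groups and moderated by eBayes. Arrays outside a comparison therefore also enter its p-values. Each array held 254 to 288 features above 16, the ceiling of 16-bit images on this scale, with 0 collagen values among them; folds are on the deposited scale.

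Members and gene lists were chosen with earlier results of these data known. Genes named are Ogt, every member called, a fixed set of chains of types I, III, IV, V, VI, XV and XVIII with their partners, and up to 4 called genes per related list and comparison with the smallest adjusted p. A few more, among them genes that were not called, are named to complete a count, chosen after their values were seen. Alternatives were each array left out, the replicate number as a block, the 3 arrays with skeletal muscle transcripts left out, other scalings, a filter on dim genes, the mean of a symbol's rows, values capped at 16, another variance prior and fits of single comparisons; leaving out WT replicate 3 at 4 weeks as well was added after seeing the data. Col7a1, Col12a1 and Col21a1 were not analysed here.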

Additional observations from a re-analysis of the deposited data

Results flagged for a closer look

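Of 16 collagen genes checked in 64 groups of 5 arrays, 5 groups held a value that stood apart from the other 4 by more than Dixon's 95% limit; chance alone gives about 1 in 20. In 8-week WT, replicate 1 was low for both Col4a2, at 5.50 against 6.37 to 6.51, and Col18a1, at 13.83 against 14.33 to 14.46. In 4-week WT, replicate 4, an array with skeletal muscle transcripts, was high for Col6a2, at 7.64 against 5.49 to 5.78, and low for Col27a1, at 3.53 against 4.26 to 4.47. In 4-week KO, replicate 2 was high for Col27a1, at 4.80 against 4.13 to 4.28, all below background.

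The KO effect on Col14a1 differed between the ages by 1.06 on the log2 scale (limma adjusted p = 0.0387), by the test of that difference itself. This call was lost in 13 of the 20 fits that left out 1 array. It was also lost without the 3 arrays with skeletal muscle transcripts (0.88, limma adjusted p = 0.11).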

How the results depend on the processing

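No collagen result changed direction while called. The 6 genes higher at 8 weeks were counted as 6 to 7 under the other settings and as 4 to 9 when 1 array was left out, 4 without replicate 2 and 9 without replicate 3 of the arrays labelled KO. The fit of the 8-week groups alone also gave 6 but held Col6a2 in place of Col4a2.

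The single gene lower at 4 weeks, Col18a1, fell to 0 with the replicate block, without the 3 arrays with skeletal muscle transcripts, without 4 arrays, with quantile normalization repeated and with values capped at 16 (adjusted p = 0.0511), and the count was 2 with array medians set equal. The single gene lower at 8 weeks, Col9a1, fell to 0 with the replicate block, without the 3 or 4 arrays, with an intensity trend in the prior and in the fit of 2 groups. Leaving out 1 array gave 0 to 1 for both, and 0 to 0 for genes higher at 4 weeks. For the change of the KO effect between ages, the count higher was 0 without 4 arrays and with quantile normalization, and 2, Col3a1 and Col14a1, without the dimmest 25% of genes; leaving out 1 array gave 0 to 4 higher and 0 to 0 lower. Without the 3 arrays it stayed at 1, with Col3a1 in place of Col14a1. It could not be fitted with the groups of a single comparison.

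With age in WT, leaving out 1 array gave 0 to 1 higher and 5 to 6 lower. In the arrays labelled KO it gave 1 to 3 higher and 1 to 1 lower; the fit of those groups alone gave 1 higher, and the count lower, Col5a1, was 0 without the 3 or 4 arrays and without the dimmest 25% of genes, where it was not tested. Col1a1 with age in WT was called in the fit of the WT groups alone (adjusted p = 0.0485). The causes were not tested unless stated.

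The labels do not say that replicate numbers pair animals, and the numbers were not taken to pair them: deviations of same-numbered arrays correlated above 0.1 in 5 of 30 pairs, from -0.176 to 0.479. Of these 5, 4 were between WT and KO at 4 weeks (0.139, 0.32, 0.159 and 0.479, with the last pair at -0.146). Skeletal muscle transcripts were found in replicate 4 of both these groups and in replicate 5 of KO only. Their part in the correlations was not tested. With the replicate block the counts were 6 higher and 0 lower at 8 weeks, 0 and 0 at 4 weeks, 0 and 6 with age in WT, 3 and 1 with age in the arrays labelled KO, and 1 and 0 for the change between ages. Col18a1 at 4 weeks (adjusted p = 0.0793) and Col9a1 at 8 weeks (adjusted p = 0.0858) were the 2 single genes that lost their call. Of the values for single genes and medians, 1866 kept their side of the threshold, 98 lost a call and 18 gained one. Of the counts of collagen genes called, 68 moved under another setting and 230 did not. Shifts from 6 to 4 or 9 were not counted as moved. Genes near the background level can change without a readable size.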

Other observations

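Other cell type markers also moved with age in the arrays labelled KO. In this comparison 7.85% of all genes rose and 6.78% fell. All 5 Kupffer cell markers fell between 4 and 8 weeks, led by Clec4f (-2.16, limma adjusted p = 3.12e-06) and Cd5l (-1.93, limma adjusted p = 1.91e-05), and all 5 fell without the 3 arrays with skeletal muscle transcripts. In WT 2 of the 5 fell with age too, Clec4f (-1.40, limma adjusted p = 0.000488) and Vsig4 (-0.94, limma adjusted p = 0.0371), and for none of the 5 did the change between ages differ by genotype past the threshold (limma adjusted p from 0.0769 to 0.688). Of 8 cholangiocyte markers 7 rose, among them the progenitor and duct transcription factor Sox9 (2.28, limma adjusted p = 0.000262), and 5 rose without those arrays. Of 7 myofibroblast and smooth muscle markers 5 fell, among them Acta2 (-2.47, limma adjusted p = 0.00474), and 2 fell without those arrays.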
